A study of Mus musculus with 18 samples.

Results

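Antiviral interferon-stimulated genes are the transcripts that cells switch on to block viral replication, and 43 of them were followed in mouse eosinophils cultured with apoptotic cells (ACs). The members were listed by symbol and found among the 54446 genes of the deposited table through their Ensembl identifiers, and all 43 were present and expressed highly enough to be tested. By role they comprised 4 sensors of viral RNA or DNA, 2 enzymes that act on double-stranded RNA, 5 genes of the Ifit family, 6 of the Oas family, 5 of the Isg15 conjugation system, 3 enzymes of nucleotide or RNA metabolism, 5 large effectors including the Mx proteins, 6 membrane or secreted proteins, 4 nuclear proteins and 3 other induced genes.

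RNA sequencing was performed on 18 CEL-Seq2 libraries, a method that counts reads from the end of each polyadenylated transcript, with 3 libraries in each of 6 groups. The eosinophils came from the peritoneal cavity of Il5 transgenic mice (strain C57BL/6 in the sample labels), which carry large numbers of these cells, and every group was cultured for 18 h with an excess of thymocytes made apoptotic with dexamethasone and was then purified again with beads against Siglec-F. The Type 1 experiment held an ACs group without stimulus, 1 group each with IFN-γ + ACs and with E. coli + ACs, and 1 in which IFN-γ was followed by bacteria, written IFN-γ + E. coli + ACs. A separate IL-4 experiment held its own ACs group and 1 with IL-4 + ACs. Each stimulus was compared with the ACs libraries of its own experiment, so that the E. coli, IFN-γ and combined comparisons share the same 3 control libraries and their values stand side by side without being independent of one another. Eosinophils without ACs are not analysed here, so all values describe eosinophils that had met dying cells, and all carried the Il5 transgene.

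Interferons act through cell-surface receptors and associated Janus kinases. Type I interferons assemble a transcription factor complex that contains Irf9 and binds the interferon-stimulated response element (ISRE), whereas IFN-γ signals through dimers that bind the gamma-activated site (GAS) and through induced factors such as Irf1. Endotoxin of E. coli is sensed by Tlr4, which activates NF-κB and, through the adaptor Ticam1, can induce interferon-β. The products of the genes described here sense viral nucleic acid, bind or degrade viral RNA, modify proteins with the ubiquitin-like protein Isg15, deplete or alter nucleotides, or restrict viral assembly and release.

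The 250 bases before the transcription start are given for 8 members, because both interferon pathways act on such sequences and these members span the range of the IFN-γ response. They are those of RefSeq on GRCm38.p6, taken at the most upstream start of each gene and written on the strand of the gene from 5′ to 3′, and 33 of the 43 members were found in the table of promoters. Capitals mark the ISRE core on either strand, that is, GAAA and a second GAAA with any 2 bases between them, and overlapping matches are joined. Ifit2 and Rsad2 had the largest rise with IFN-γ among members with a promoter, Ifit1bl1 and Ifit3b the lowest values, and Isg15, Ifit1, Phf11b and Ifit3 were the next members that hold a core. The windows lie at chr19:34550444-34550693 (plus strand) for Ifit2, chr12:26456453-26456702 (minus strand) for Rsad2, chr4:156200819-156201068 (minus strand) for Isg15, chr19:34640639-34640888 (plus strand) for Ifit1, chr14:59341331-59341580 (minus strand) for Phf11b, chr19:34583279-34583528 (plus strand) for Ifit3, chr19:34601969-34602218 (minus strand) for Ifit1bl1 and chr19:34607707-34607956 (plus strand) for Ifit3b.
Ifit2: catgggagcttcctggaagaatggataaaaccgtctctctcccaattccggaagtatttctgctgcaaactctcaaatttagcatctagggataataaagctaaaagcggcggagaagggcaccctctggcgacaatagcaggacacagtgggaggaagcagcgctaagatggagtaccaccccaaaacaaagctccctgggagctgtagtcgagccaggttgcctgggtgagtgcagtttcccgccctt
Rsad2: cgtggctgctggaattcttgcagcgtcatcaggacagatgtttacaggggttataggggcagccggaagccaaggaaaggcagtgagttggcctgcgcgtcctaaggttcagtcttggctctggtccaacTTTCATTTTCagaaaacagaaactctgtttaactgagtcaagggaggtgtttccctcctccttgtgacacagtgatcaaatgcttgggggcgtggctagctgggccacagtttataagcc
Isg15: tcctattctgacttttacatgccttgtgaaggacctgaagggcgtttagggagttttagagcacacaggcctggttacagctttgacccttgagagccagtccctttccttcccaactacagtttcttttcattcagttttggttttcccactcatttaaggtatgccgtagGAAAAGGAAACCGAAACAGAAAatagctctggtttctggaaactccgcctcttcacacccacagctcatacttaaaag
Ifit1: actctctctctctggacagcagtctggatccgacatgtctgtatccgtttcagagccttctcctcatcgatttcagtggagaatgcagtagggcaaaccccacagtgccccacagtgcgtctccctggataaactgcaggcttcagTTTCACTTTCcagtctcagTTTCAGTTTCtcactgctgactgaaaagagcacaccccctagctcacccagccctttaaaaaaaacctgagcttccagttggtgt
Phf11b: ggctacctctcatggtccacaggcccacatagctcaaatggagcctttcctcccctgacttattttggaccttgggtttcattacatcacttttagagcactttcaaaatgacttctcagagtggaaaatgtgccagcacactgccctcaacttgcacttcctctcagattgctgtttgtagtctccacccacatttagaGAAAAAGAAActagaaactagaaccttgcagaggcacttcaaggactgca
Ifit3: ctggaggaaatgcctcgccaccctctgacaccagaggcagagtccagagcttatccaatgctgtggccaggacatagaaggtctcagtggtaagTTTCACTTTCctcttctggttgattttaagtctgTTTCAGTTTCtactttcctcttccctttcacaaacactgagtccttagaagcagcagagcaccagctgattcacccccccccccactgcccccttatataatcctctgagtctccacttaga
Ifit1bl1: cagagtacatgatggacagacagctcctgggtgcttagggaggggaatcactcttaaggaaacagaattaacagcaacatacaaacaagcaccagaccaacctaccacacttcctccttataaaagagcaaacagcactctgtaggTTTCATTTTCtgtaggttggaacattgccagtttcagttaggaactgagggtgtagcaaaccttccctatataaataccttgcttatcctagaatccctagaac
Ifit3b: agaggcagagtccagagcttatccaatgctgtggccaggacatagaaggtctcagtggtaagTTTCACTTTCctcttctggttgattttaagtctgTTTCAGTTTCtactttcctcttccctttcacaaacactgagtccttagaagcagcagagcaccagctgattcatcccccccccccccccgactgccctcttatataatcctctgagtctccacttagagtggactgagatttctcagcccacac

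The ISRE core was found in 11 of the 33 member promoters (33.3%) and in 823 of all 27025 promoters of the same length (3.05%). Isg15 held 3 overlapping cores, the first of which began 78 bases before the start, and Ifit1 held 2, at 104 and 85 bases. The pair Ifit3 and Ifit3b held 2 each, at 156 and 122 bases in Ifit3 and at 188 and 154 bases in Ifit3b. Their windows, aligned with gaps counted as mismatches, matched at 77.0% of positions, a value lowered by the shift between the windows. Ifit2, with the largest IFN-γ response of all members, held no ISRE core in this window and 1 GAS core, which began 241 bases before the start. The GAS core TTCNNNGAA, searched in the same way, was found in 5 of the 33 member promoters (15.2%) and in 7.14% of all promoters.

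The libraries of the Type 1 experiment held 2216917 to 5078760 reads on genes, while replicate 3 of each group in the IL-4 experiment held only 849705 (IL-4 + ACs) and 779421 reads (ACs). Values are normalized counts, that is, reads on a gene divided by a size factor of the library. A gene was said to rise or fall where limma, fitted across all genes on log2 of the normalized count plus 1, gave at least a 1.5-fold change and an adjusted p (Benjamini-Hochberg) below 0.05. All log2 fold changes below are on that scale and are followed by their standard error. Lists of targets of the stimuli were chosen with earlier results of these data known, so they are no independent check. Of these, 9 of 9 tested IFN-γ targets rose with IFN-γ + ACs, and 9 of 10 endotoxin targets rose with E. coli + ACs. With IL-4 + ACs 5 of 7 tested IL-4 targets and 2 of 9 tested endotoxin targets rose. With E. coli + ACs 3 of 9 IFN-γ targets also rose. With IFN-γ + ACs 3 of 10 endotoxin targets rose, and of 6 tested IL-4 targets 3 rose and 1 fell.

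Of 10 eosinophil markers 7 were abundant enough to be tested in the Type 1 experiment, Siglecf and Ccr3 among them, and all 10 in the IL-4 experiment. The granule gene Epx was near 0 in the Type 1 experiment, at 0, 0 and 1.38 with both stimuli and at most 3.27 in its other libraries. The 10 markers had summed normalized counts of 16335 to 17755 in the ACs libraries of the Type 1 experiment, 17549 to 18799 with E. coli, 10004 to 11253 with IFN-γ, 14439.8 to 17104 with both stimuli, and 21204 to 26586 in the IL-4 experiment. All 12 macrophage markers, such as Csf1r and the C1q chains, were abundant enough to be tested, and their sum moved with the stimulus. It lay between 19313 and 24774 in the ACs libraries, between 10693 and 13106 in those with E. coli, between 29255 and 38988 in those with IFN-γ, and between 12014 and 13125 in those with both stimuli. In the IL-4 experiment it ranged from 28751 to 42371 with ACs and from 23154 to 38539 with IL-4 + ACs. In the Type 1 experiment the macrophage sum lay above the eosinophil sum with ACs and with IFN-γ. It lay below the eosinophil sum in both groups with E. coli. Sums over different genes do not give shares of cells. Gene by gene, 6 macrophage markers fell and none rose with E. coli, 4 rose and 1 fell with IFN-γ, and 2 rose and 7 fell with both. Of the 7 tested eosinophil markers 1 rose and 1 fell with E. coli, 4 fell with IFN-γ (Siglecf, Alox15, Ear6 and Il5ra) and 2 fell with both (Siglecf and Ear2). Thymocyte markers, 14 in all, summed to at most 274 in any library. B cell markers, 6 in all, summed to between 902 and 1043 in the ACs libraries of the Type 1 experiment and to at most 317 in its stimulated libraries. Of 10 neutrophil markers 6 were tested in the Type 1 experiment, of which 3 rose and 1 fell with E. coli, 3 rose and 1 fell with IFN-γ, and 4 rose and 1 fell with both. All 10 summed to between 2157 and 2436 with ACs, 2472 and 2797 with E. coli, and 2249 and 2715 with IFN-γ. With both stimuli the neutrophil sum lay below that with ACs, between 1663 and 2074. S100a8, which encodes a calcium-binding protein abundant in neutrophils, had normalized counts of 46.4, 56.3 and 39.1 with ACs, 383, 254 and 354 with E. coli, 115, 124 and 146 with IFN-γ and 134, 114 and 189 with both, and the defining gene Ly6g had at most 34.9 in any library. The paper reports S100a8 among the secreted factors that eosinophils raised with ACs. In such bulk libraries fewer cells of a type cannot be told apart from less RNA per cell, and the part of these other cells in the values of the antiviral genes was not tested.

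With E. coli + ACs, 5 of the 43 members rose and 1 fell, where 5.05% of all 10166 genes tested rose and 5.25% fell. With IFN-γ + ACs 15 members rose, where 11.4% of all genes rose. None fell (1 without ACs replicate 2 or without IFN-γ + ACs replicate 3), where 9.96% of all genes fell, and 1 member was lower at an unadjusted p under 0.05 by limma. Of the alternatives, 1 member was lower with array weights and none with edgeR or DESeq2. With IFN-γ + E. coli + ACs 17 members rose and 4 fell (2 without ACs replicate 1), where 14.7% of all genes rose and 17.2% fell. Rescaling to a common upper quartile ended the calls of Cmpk2, Samd9l, Usp18, Helz2, Rtp4 and Oasl1 with both stimuli, of Ifit3, Oasl2 and Ifi27 with IFN-γ and of Usp18 with E. coli, and added Epsti1 and Oas1a as lower with both. The median log2 fold change of the members was 0.21 with E. coli, 0.29 with IFN-γ and 0.37 with both, while the median over all genes tested was -0.004, 0.00 and -0.05. Rsad2, Isg15, Ifit1 and Oasl1 rose under all 3 stimuli, whereas 16 members passed the threshold under none of them, among them the RNA sensors Ddx58, Ifih1 and Dhx58, the kinase Eif2ak2 and the synthetases Oas1a, Oas2 and Oas3.

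The summed normalized counts of the members were above ACs in all 9 stimulated libraries. They lay between 44642 and 49450 in the ACs libraries, between 54050 and 60485 in those with E. coli, between 65585 and 76490 in those with IFN-γ, and between 65106 and 73483 in those with both. The first 3 of these ranges did not overlap, whereas those with IFN-γ and with both stimuli did. As a share of all normalized counts in a library the members took 1.12% to 1.26% with ACs, 1.30% to 1.44% with E. coli, 1.42% to 1.63% with IFN-γ and 1.39% to 1.56% with both, so that on this scale all 3 stimulated groups lay above ACs but overlapped with one another.

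**Figure D1:**
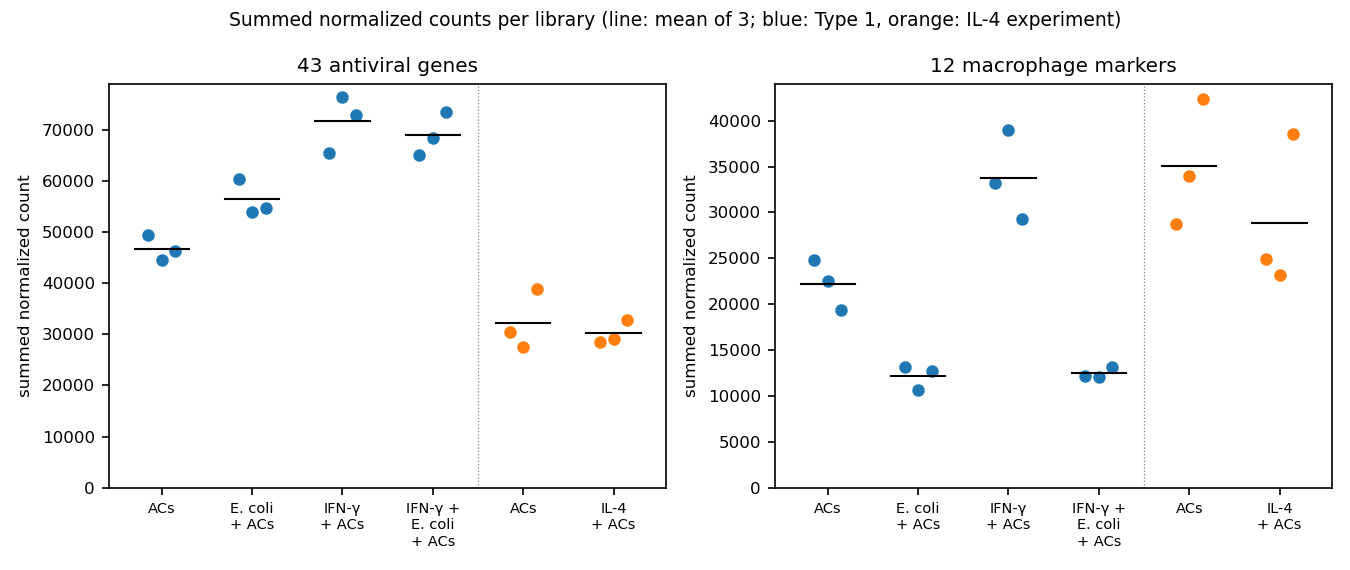
Summed normalized counts per library on the vertical axis for the 43 antiviral genes (left) and for 12 macrophage markers (right), by group on the horizontal axis, with a point for each library, a line at the mean of 3, the Type 1 experiment in blue and the IL-4 experiment in orange. The antiviral sum was highest with IFN-γ + ACs (65585 to 76490) and with both stimuli (65106 to 73483), whereas the macrophage sum was high with IFN-γ + ACs and low in both groups with E. coli.

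**Figure D2:**
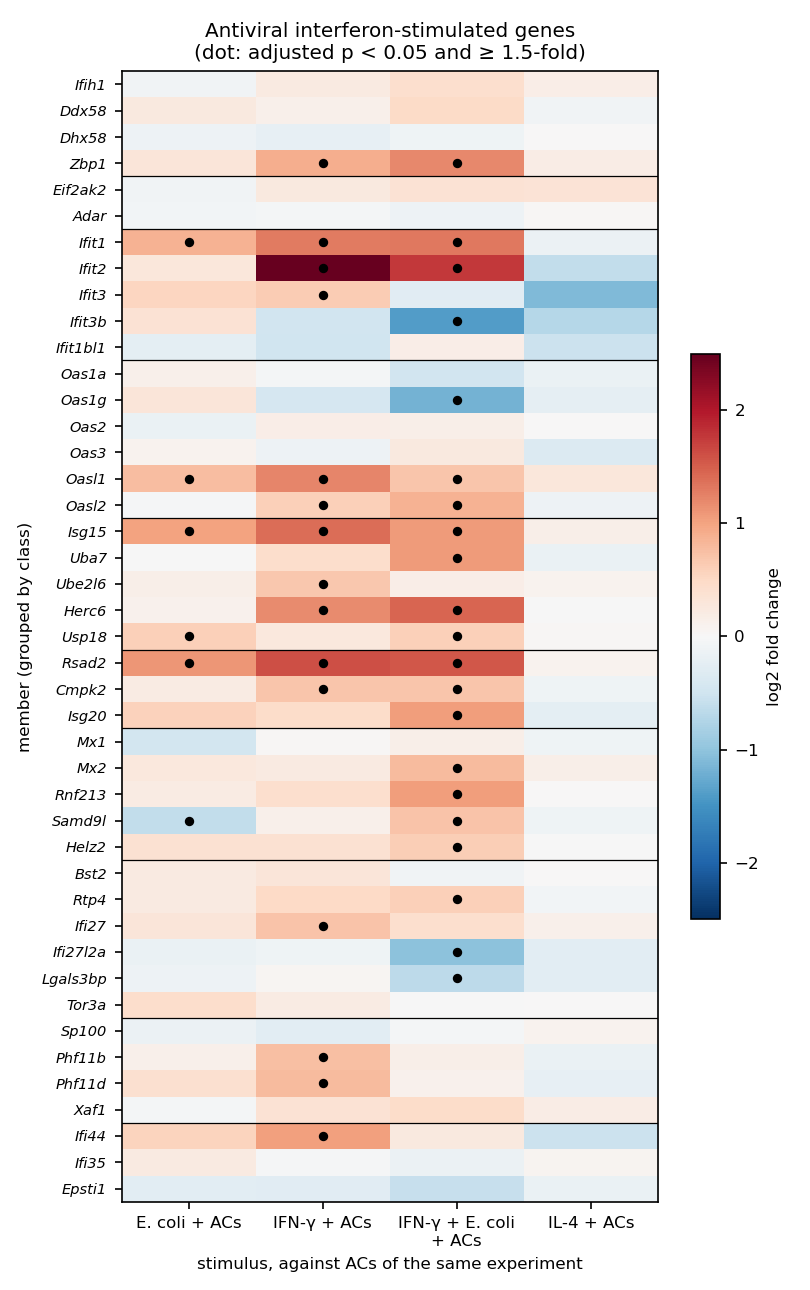
Log2 fold change of each of the 43 members (vertical axis, grouped by role) against ACs of the same experiment for the 4 stimuli (horizontal axis), with red for higher, blue for lower and a dot where the change passed the threshold. Dots mark 6 members for E. coli, 15 for IFN-γ, 21 for both stimuli and none for IL-4.

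Among the sensors of nucleic acid, only Zbp1 passed the threshold. It binds left-handed double-stranded nucleic acid and can trigger cell death. Normalized counts of Zbp1 were 1306, 1312 and 1329 in the ACs libraries, 1678, 1483 and 1700.3 in those with E. coli, 2368, 2563 and 2473 in those with IFN-γ, and 3177, 2855 and 3074 in those with both. Zbp1 rose 1.87-fold with IFN-γ + ACs (log2 fold change 0.91 ± 0.10, adjusted p = 1.02e-06) and 2.3-fold with both stimuli (1.20 ± 0.10, adjusted p = 1.55e-08), every stimulated library lying above every ACs library. With E. coli + ACs its log2 fold change was 0.30 ± 0.10 (adjusted p = 0.053), and its interaction term, defined below, was 0.00 ± 0.14. Ddx58 encodes the RNA helicase RIG-I. Normalized counts of Ddx58 were 887, 802 and 967 in the ACs libraries, 1046, 1115 and 995 in those with E. coli, 926, 1009.8 and 967 in those with IFN-γ, and 1326, 1175 and 1196 in those with both. The libraries with both stimuli lay above those with ACs, but the log2 fold change of 0.48 ± 0.11 (adjusted p = 0.00188) was under 1.5-fold. Ifih1 (MDA5) had normalized counts between 270 and 490 in the Type 1 experiment and Dhx58 (LGP2) between 351 and 495, and neither passed the threshold under any stimulus.

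The enzymes that act on double-stranded RNA did not pass it either. Eif2ak2 (PKR) is the kinase that stops translation upon binding such RNA. Normalized counts of Eif2ak2 were 307, 341 and 381 in the ACs libraries, 322, 354 and 295 in those with E. coli, 376, 462 and 386 in those with IFN-γ, and 382, 489.8 and 459 in those with both. The 3 libraries with both stimuli were just above those with ACs, with a log2 fold change of 0.37 ± 0.14 (adjusted p = 0.0467), under 1.5-fold. Adar, which edits adenosine to inosine, showed a log2 fold change of -0.04 ± 0.15 with IFN-γ and -0.12 ± 0.15 with both stimuli. Normalized counts of Adar were 591, 557 and 574 in the ACs libraries, 544, 536 and 554 in those with E. coli, 587, 551 and 531 in those with IFN-γ, and 634, 606 and 385 in those with both. Apart from 1 low library among those with both stimuli, the other 11 values lay between 531 and 634.

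The Ifit genes encode proteins that bind the ends of viral RNA, and 5 of them lie side by side on chromosome 19 between 34550694 and 34650009 of GRCm38. Ifit1 rose under all 3 stimuli of the Type 1 experiment, Ifit2 in both groups with IFN-γ, Ifit3 with IFN-γ alone, and Ifit3b fell with both stimuli. Normalized counts of Ifit1 were 2471, 2657 and 2788 in the ACs libraries, 5482, 5029 and 4106 in those with E. coli, 5384, 6646 and 7484 in those with IFN-γ, and 6007, 6668 and 7094 in those with both. Ifit1 rose 1.84-fold with E. coli (log2 fold change 0.88 ± 0.13, adjusted p = 9.85e-05), 2.45-fold with IFN-γ (1.29 ± 0.13, adjusted p = 3.53e-07) and 2.49-fold with both (1.32 ± 0.13, adjusted p = 1.68e-07), and no stimulated library overlapped the ACs libraries. Ifit2 was high in both groups with IFN-γ. Normalized counts of Ifit2 were 364, 292 and 317 in the ACs libraries, 435, 425 and 329.9 in those with E. coli, 1554, 1899 and 2013 in those with IFN-γ, and 1025, 914 and 1438 in those with both. The rise with IFN-γ of 5.6-fold (2.48 ± 0.16, adjusted p = 1.04e-09) was the largest of all members, it was 3.41-fold with both stimuli (1.77 ± 0.16, adjusted p = 7.21e-08), and with E. coli alone the values overlapped those with ACs (0.29 ± 0.16, adjusted p = 0.289). In the direct comparison of the single stimuli, Ifit2 was 4.59-fold higher with IFN-γ than with E. coli (2.20 ± 0.16, adjusted p = 9.71e-09).

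Ifit3 and Ifit3b are close relatives, and both had their lowest mean in the Type 1 experiment with the combined stimulus. Normalized counts of Ifit3 were 2013, 1654 and 1436 in the ACs libraries, 2736, 2296 and 2291 in those with E. coli, 2522, 2773 and 2555 in those with IFN-γ, and 1386, 1391 and 1400.4 in those with both. Ifit3 was thus higher with either stimulus alone, by 1.44-fold with E. coli (log2 fold change 0.53 ± 0.12, adjusted p = 0.00541, under the 1.5-fold threshold) and by 1.55-fold with IFN-γ (0.63 ± 0.12, adjusted p = 0.000555). With both stimuli all 3 libraries lay below every ACs library, although the log2 fold change of -0.27 ± 0.12 (adjusted p = 0.0791) did not pass the test. Normalized counts of Ifit3b were 252, 150.2 and 186 in the ACs libraries, 249, 255 and 240.1 in those with E. coli, 144, 144 and 123 in those with IFN-γ, and 67, 61.1 and 92.4 in those with both. Ifit3b fell 2.63-fold with both stimuli (-1.39 ± 0.20, adjusted p = 1.58e-05) and showed a log2 fold change of 0.37 ± 0.20 (adjusted p = 0.252) with E. coli and -0.48 ± 0.20 (adjusted p = 0.077) with IFN-γ. The last 300 bases of their longest transcripts, the end this method reads, matched at 48.3% of aligned positions, with gaps counted as mismatches. Other pairs of relatives compared in this way gave 41.7% to 52.8%. The value depends on where the annotated transcripts end, and whether reads of the 2 genes were kept apart was not tested. The fifth gene, Ifit1bl1, ranged from 75.2 to 179.7 normalized counts in the Type 1 experiment and did not pass the threshold. Leaving out ACs replicate 3 took the IFN-γ value of Ifit3 to 0.52, under 1.5-fold.

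The Oas genes encode oligoadenylate synthetases, which activate an RNA-degrading enzyme, and related proteins without that activity such as Oasl1. All 6 lie on chromosome 5. Oasl1 and Oasl2 rose, Oas1g fell with both stimuli, and Oas1a, Oas2 and Oas3 did not pass the threshold. Normalized counts of Oasl2 were 3933, 3303 and 3546 in the ACs libraries, 3698, 3359 and 3531 in those with E. coli, 5809, 5697 and 4892 in those with IFN-γ, and 6386, 6474 and 6769 in those with both. Oasl2 rose 1.52-fold with IFN-γ (0.60 ± 0.10, adjusted p = 0.000194) and 1.82-fold with both stimuli (0.87 ± 0.10, adjusted p = 2.04e-06), and showed a log2 fold change of -0.02 ± 0.10 with E. coli alone. Oasl1, which limits translation of Irf7, rose under all 3 stimuli, by 1.71-fold with E. coli (0.77 ± 0.15, adjusted p = 0.00134), 2.34-fold with IFN-γ (1.23 ± 0.15, adjusted p = 3.43e-06) and 1.62-fold with both (0.69 ± 0.15, adjusted p = 0.001). Its normalized counts were 814 to 964 with ACs and 1844 to 2425 with IFN-γ. Oas3 makes long oligoadenylates. Normalized counts of Oas3 were 1582, 1182 and 1438 in the ACs libraries, 1462, 1410.2 and 1588 in those with E. coli, 1281, 1319 and 1225 in those with IFN-γ, and 1800.4, 1615 and 1522 in those with both. Its log2 fold change was -0.13 ± 0.12 with IFN-γ and 0.24 ± 0.12 with both stimuli, and the values with both overlapped those with ACs.

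Oas1g had few counts and was lowest with the combined stimulus. Normalized counts of Oas1g were 39, 33.8 and 28.5 in the ACs libraries, 47.7, 38.4 and 38.7 in those with E. coli, 47.5, 21.8 and 14.4 in those with IFN-γ, and 15.7, 12.2 and 15.2 in those with both. It fell 2.26-fold with both stimuli (-1.18 ± 0.37, adjusted p = 0.0165), and its 3 libraries lay below those with ACs. Leaving out ACs replicate 1 took this value to -1.07 with an adjusted p of 0.0658 by limma, no longer a call. Its neighbour Oas1a ranged from 55.0 to 61.3 with both stimuli and from 65.7 to 102 with ACs, with a log2 fold change of -0.47 ± 0.20 (adjusted p = 0.0736) that did not pass. Oas2 ranged from 254 to 406 in the Type 1 experiment and did not pass under any stimulus. The rise of Oasl2 with IFN-γ was close to 1.5-fold and was 0.55 without ACs replicate 2, 0.56 without IFN-γ + ACs replicate 1 and 0.57 without replicate 2, and that of Oasl1 with both stimuli was 0.53 without IFN-γ + E. coli + ACs replicate 2.

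Isg15 is a ubiquitin-like protein that is attached to other proteins by the enzymes Uba7, Ube2l6 and, in the mouse, Herc6, and removed by Usp18, which also dampens the type I interferon receptor. All 5 genes of this system rose under at least 1 stimulus of the Type 1 experiment. Normalized counts of Isg15 were 1195, 885 and 1076 in the ACs libraries, 2436, 1904 and 1997 in those with E. coli, 2118, 3148 and 3080.2 in those with IFN-γ, and 1903, 2312 and 2372 in those with both. Isg15 rose 2.01-fold with E. coli (1.01 ± 0.15, adjusted p = 0.000148), 2.62-fold with IFN-γ (1.39 ± 0.15, adjusted p = 1.32e-06) and 2.09-fold with both (1.07 ± 0.15, adjusted p = 2.08e-05). The combined stimulus thus gave values that overlapped those of either stimulus alone. Normalized counts of Herc6 were 326, 312 and 315 in the ACs libraries, 324, 356 and 343 in those with E. coli, 648, 714 and 819 in those with IFN-γ, and 756, 809 and 1086 in those with both. Herc6, the ligase, rose with IFN-γ by 2.28-fold (1.19 ± 0.14, adjusted p = 2.68e-06) and with both by 2.74-fold (1.46 ± 0.14, adjusted p = 1.2e-07), whereas with E. coli its log2 fold change was 0.10 ± 0.14.

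The activating enzyme Uba7 was highest with both stimuli. Normalized counts of Uba7 were 408, 325 and 342 in the ACs libraries, 378, 346 and 345 in those with E. coli, 517, 499 and 441 in those with IFN-γ, and 804, 860.0 and 592 in those with both. It rose 2.08-fold with both (1.06 ± 0.15, adjusted p = 1.23e-05), and its log2 fold change with IFN-γ was 0.44 ± 0.15 (adjusted p = 0.0305), under 1.5-fold. For Usp18 the groups with bacteria overlapped each other and lay above ACs. Normalized counts of Usp18 were 781, 697 and 742 in the ACs libraries, 1103, 1089.8 and 1143 in those with E. coli, 828, 969 and 862 in those with IFN-γ, and 1115, 1094 and 1122 in those with both. It rose 1.5-fold with E. coli (0.59 ± 0.11, adjusted p = 0.000709) and 1.5-fold with both (0.59 ± 0.11, adjusted p = 0.000205), and its libraries with IFN-γ alone also lay above ACs but under 1.5-fold (0.26 ± 0.11, adjusted p = 0.077). These Usp18 values sat at the fold threshold, so that leaving out ACs replicate 2 (0.55) or E. coli + ACs replicate 3 (0.57) ended the call with E. coli, and leaving out ACs replicate 2 (0.54) or replicate 1 or 3 of the combined group (0.58 each) ended that with both. Ube2l6 rose 1.6-fold with IFN-γ (0.68 ± 0.15, adjusted p = 0.00231, 0.58 and under 1.5-fold without ACs replicate 3) and showed a log2 fold change of 0.17 ± 0.15 with both stimuli.

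Rsad2 (viperin) makes a chain-terminating nucleotide, Cmpk2 is its neighbour on chromosome 12 and supplies the substrate, and Isg20 is an exonuclease that degrades RNA. All 3 rose with both stimuli. Normalized counts of Rsad2 were 3429, 2914 and 3242 in the ACs libraries, 7631, 6669 and 6300.0 in those with E. coli, 7892, 10047 and 11744 in those with IFN-γ, and 8269, 9380.2 and 10716 in those with both. Rsad2 showed the largest rise of any member with E. coli, 2.15-fold (1.10 ± 0.14, adjusted p = 1.44e-05), and rose 3.06-fold with IFN-γ (1.61 ± 0.14, adjusted p = 3.56e-08) and 2.95-fold with both (1.56 ± 0.14, adjusted p = 3.55e-08). Normalized counts of Cmpk2 were 1435, 1287 and 1426 in the ACs libraries, 1656, 1437 and 1684 in those with E. coli, 1936, 2278 and 2534 in those with IFN-γ, and 2117, 2018 and 2655 in those with both. Cmpk2 rose with IFN-γ (0.69 ± 0.13, adjusted p = 0.000364) and with both (0.70 ± 0.13, adjusted p = 0.000215, 0.58 and under 1.5-fold without replicate 3 of that group), but its log2 fold change with E. coli was 0.20 ± 0.13. Isg20 ranged from 565 to 678 with ACs and from 1160.5 to 1378 with both stimuli, a rise of 2.05-fold (1.04 ± 0.11, adjusted p = 7.73e-07). With E. coli and with IFN-γ alone its log2 fold changes of 0.57 ± 0.11 (adjusted p = 0.00185) and 0.45 ± 0.11 (adjusted p = 0.0057) were under 1.5-fold.

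Of the large effectors, Mx1 and Mx2 belong to the dynamin-like GTPases, and Mx2 is annotated as a polymorphic pseudogene. Whether either transcript makes a working protein in these mice was not tested. Rnf213 is a giant ubiquitin ligase, Helz2 a helicase and Samd9l a protein that restrains translation in infected cells. Mx2, Rnf213, Helz2 and Samd9l rose with both stimuli, and none of the 5 rose with a single one. Normalized counts of Rnf213 were 1843, 1888 and 1891 in the ACs libraries, 2099.6, 2151 and 2271 in those with E. coli, 2149, 2517 and 2896 in those with IFN-γ, and 3693, 3556 and 4393 in those with both. Rnf213 rose 2.06-fold with both (1.04 ± 0.12, adjusted p = 8.79e-07), with values of 0.42 ± 0.12 (adjusted p = 0.0116) for IFN-γ and 0.21 ± 0.12 (adjusted p = 0.264) for E. coli. Normalized counts of Samd9l were 2047, 2789 and 3089 in the ACs libraries, 1542, 2207 and 1469.9 in those with E. coli, 2886, 2987 and 2612 in those with IFN-γ, and 3457, 4396 and 5039 in those with both. Samd9l fell 1.52-fold with E. coli (-0.61 ± 0.17, adjusted p = 0.0211) and rose 1.63-fold with both (0.71 ± 0.17, adjusted p = 0.00262), the only member called in opposite directions. The values with E. coli overlapped those with ACs, and the fall was lost without ACs replicate 2 or 3 or without E. coli + ACs replicate 1 or 3 (adjusted p from 0.0901 to 0.125 by limma). The rise was 0.53 without ACs replicate 1 and 0.58 without replicate 3 of the combined group, both under 1.5-fold.

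Mx1 had normalized counts between 452 and 488 with E. coli, below the 604 to 658 with ACs, but the log2 fold change of -0.46 ± 0.13 (adjusted p = 0.0199) was under 1.5-fold. With both stimuli it was 0.15 ± 0.13. Mx2 had few counts, 37.5 to 55.4 normalized counts with ACs and 79.8 to 91.6 with both stimuli, a rise of 1.73-fold (0.79 ± 0.22, adjusted p = 0.0075) that was 0.62 with an adjusted p of 0.0526 by limma without ACs replicate 3. Helz2 ranged from 554 to 612 with ACs and from 862 to 920 with both, a rise of 1.54-fold (0.62 ± 0.11, adjusted p = 0.000212).

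Among the membrane and secreted proteins are Bst2 (tetherin), which holds budding virus at the cell surface, the chaperone Rtp4, and Lgals3bp, a secreted glycoprotein that binds galectin-3. Rtp4 and Ifi27 rose, whereas Ifi27l2a and Lgals3bp fell with both stimuli. Normalized counts of Ifi27l2a were 1289.7, 1106 and 1029 in the ACs libraries, 985, 1001 and 1066 in those with E. coli, 949.7, 1222 and 1019.9 in those with IFN-γ, and 442, 544 and 729.9 in those with both. Ifi27l2a fell 2.03-fold with both (-1.02 ± 0.15, adjusted p = 3.28e-05), and its 3 libraries lay below those of the other 3 groups, although its log2 fold changes with the single stimuli were -0.16 ± 0.15 and -0.10 ± 0.15. Normalized counts of Lgals3bp were 7159, 5984 and 6139 in the ACs libraries, 6202, 5285 and 6081 in those with E. coli, 6640.0, 7955 and 5469 in those with IFN-γ, and 4315, 4349 and 3529 in those with both. Lgals3bp fell 1.58-fold with both (-0.66 ± 0.13, adjusted p = 0.000576), again below all libraries of the other 3 groups. Without ACs replicate 1 or replicate 3 of the combined group its values of -0.58 and -0.56 were under 1.5-fold.

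Bst2 overlapped between ACs and the combined group. Normalized counts of Bst2 were 1599, 1450.0 and 1399 in the ACs libraries, 1991, 1509 and 1724 in those with E. coli, 1607, 1979.5 and 1882 in those with IFN-γ, and 1304, 1603 and 1268 in those with both. Its log2 fold change was 0.22 ± 0.13 with E. coli, 0.29 ± 0.13 with IFN-γ and -0.10 ± 0.13 with both. Rtp4 rose 1.51-fold with both stimuli (0.59 ± 0.12, adjusted p = 0.000631), from 718 to 784 with ACs to between 1013 and 1316, and without ACs replicate 3 (0.56) or replicate 3 of the combined group (0.48) it was under 1.5-fold. Ifi27, a mitochondrial protein with 33.3 to 45.0 normalized counts with ACs, rose 1.64-fold with IFN-γ (0.72 ± 0.24, adjusted p = 0.032), but not when ACs replicate 1 or 3 or any of the IFN-γ + ACs libraries was left out (adjusted p from 0.0599 to 0.108 by limma). Tor3a, an ATPase of the endoplasmic reticulum, did not pass the threshold, with log2 fold changes of 0.43 ± 0.13 (adjusted p = 0.0398) for E. coli and 0.20 ± 0.13 (adjusted p = 0.292) for IFN-γ.

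The nuclear members Phf11b and Phf11d, paralogs with a zinc finger, rose with IFN-γ. Normalized counts of Phf11d were 2603, 2006 and 1949 in the ACs libraries, 3429.8, 2689.7 and 2578 in those with E. coli, 3606, 4339.6 and 3308 in those with IFN-γ, and 2006, 2253 and 2826 in those with both. Phf11d rose 1.72-fold with IFN-γ (0.78 ± 0.15, adjusted p = 0.000631), but with both stimuli its libraries overlapped those with ACs (0.11 ± 0.15, adjusted p = 0.599). Phf11b also rose, 1.68-fold with IFN-γ (0.74 ± 0.14, adjusted p = 0.000364) from between 1005 and 1117 to between 1496 and 2057, with 0.15 ± 0.14 (adjusted p = 0.422) for both stimuli. Sp100 is a component of nuclear bodies and did not pass the threshold. Normalized counts of Sp100 were 1859.8, 1943 and 1775 in the ACs libraries, 1787, 1586 and 1644 in those with E. coli, 1467, 1405 and 1826 in those with IFN-γ, and 1608, 1719 and 2108 in those with both. Its log2 fold changes were -0.26 ± 0.12 for IFN-γ and -0.05 ± 0.12 for both. Xaf1, a promoter of apoptosis, was above ACs in all libraries with IFN-γ (0.37 ± 0.12, adjusted p = 0.0244) and with both (0.46 ± 0.12, adjusted p = 0.00414), in each case by less than 1.5-fold.

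Of the remaining members, Ifi44 rose with IFN-γ, and Ifi35 and Epsti1 did not pass the threshold. Normalized counts of Ifi44 were 79.7, 44.1 and 58.7 in the ACs libraries, 103, 81.8 and 78.3 in those with E. coli, 103, 133 and 129 in those with IFN-γ, and 68.4, 55 and 91.1 in those with both. Ifi44 rose 2.03-fold with IFN-γ (1.02 ± 0.24, adjusted p = 0.00373), and with both stimuli its libraries overlapped those with ACs (0.24 ± 0.24, adjusted p = 0.46). Normalized counts of Ifi35 were 876, 759 and 832 in the ACs libraries, 966, 874 and 1034 in those with E. coli, 789, 915 and 733 in those with IFN-γ, and 733, 1063 and 522 in those with both. The 3 values of Ifi35 with both stimuli spanned those of all other groups of the Type 1 experiment. Normalized counts of Epsti1 were 909, 888 and 901 in the ACs libraries, 930.1, 682 and 654 in those with E. coli, 803, 814 and 626 in those with IFN-γ, and 631, 524 and 669 in those with both. Epsti1 was lower than ACs in all 3 libraries with both stimuli, by 1.49-fold (-0.57 ± 0.15, adjusted p = 0.00447), which was under 1.5-fold.

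**Figure D3:**
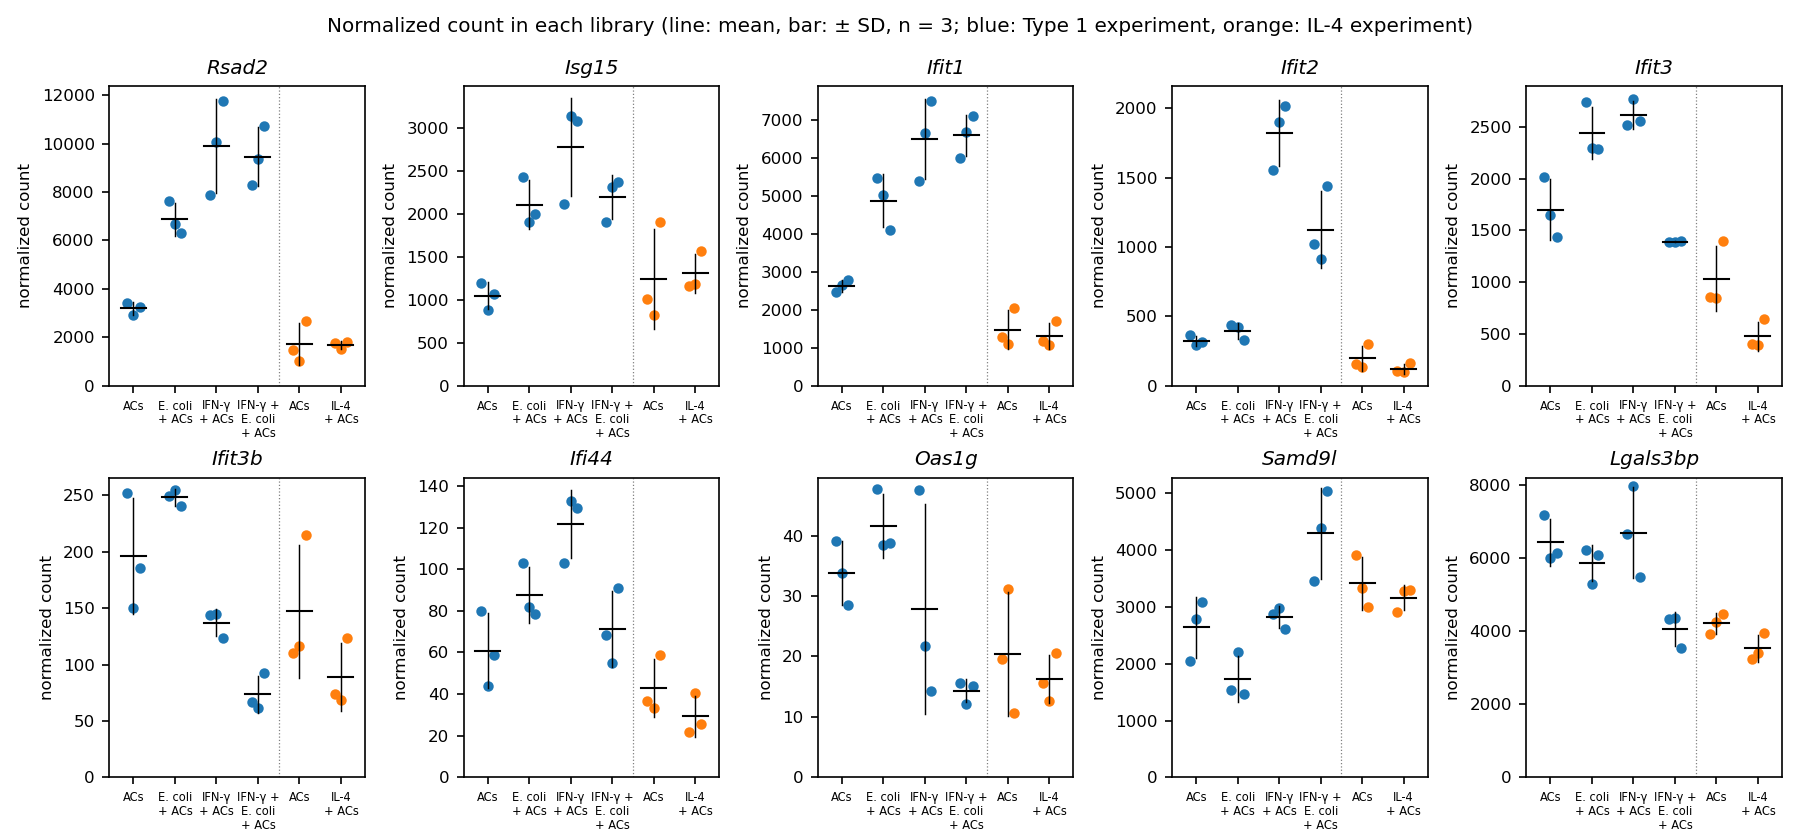
Normalized count in each library (vertical axis, from 0) for 10 members by group (horizontal axis), with points for libraries, a line at the mean and a bar of ± SD (n = 3), the Type 1 experiment in blue and the IL-4 experiment in orange. Rsad2, Isg15 and Ifit1 were above ACs in all 3 stimulated groups of the Type 1 experiment, Ifit2 was high in both groups with IFN-γ, and Ifit3, Ifit3b, Oas1g and Lgals3bp had their lowest mean within the Type 1 experiment with both stimuli.

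The design allowed a test of whether bacteria acted differently on eosinophils that had received IFN-γ. The interaction term is the log2 fold change of E. coli in the presence of IFN-γ minus that in its absence, so that a negative value means that the combined stimulus fell short of the sum of the single ones. It was lower for 13 of the 43 members and higher for 1, where 4.28% and 3.16% of all genes tested were lower and higher, and its median over the members was -0.14, against -0.03 over all genes. The 13 included 4 of the 5 Ifit genes, namely Ifit3 (-1.44 ± 0.17, adjusted p = 2.63e-05), Ifit3b (-1.28 ± 0.28, adjusted p = 0.00811), Ifit2 (-0.999 ± 0.23, adjusted p = 0.0119) and Ifit1 (-0.85 ± 0.18, adjusted p = 0.00759). Isg15 (-1.33 ± 0.22, adjusted p = 0.000899), Oasl1 (-1.30 ± 0.21, adjusted p = 0.000762) and Rsad2 (-1.16 ± 0.19, adjusted p = 0.00104), which rose under every stimulus, were also among them. For Rsad2 the single effects summed to 2.72 on the log2 scale, while the combined stimulus gave 1.56. For Isg15 the sum was 2.40 and the combined value 1.07.

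Ifi44 (-1.33 ± 0.34, adjusted p = 0.0219), Phf11d (-1.08 ± 0.21, adjusted p = 0.00378), Ifi27l2a (-0.76 ± 0.22, adjusted p = 0.0399), Phf11b (-0.72 ± 0.19, adjusted p = 0.0256), Tor3a (-0.63 ± 0.19, adjusted p = 0.0481) and Bst2 (-0.62 ± 0.18, adjusted p = 0.0429) completed the 13 members. Samd9l was the exception, with a positive term of 1.19 ± 0.24 (adjusted p = 0.00426): it fell with E. coli alone and was 1.5-fold higher when bacteria were added to IFN-γ (0.59 ± 0.17, adjusted p = 0.0183). The negative term was kept when any single library was left out for 8 of the 13 members, the exceptions being Ifi44, Phf11b, Ifi27l2a, Tor3a and Bst2, of which Bst2 and Tor3a sat closest to the threshold. Fitting all 18 libraries together left 7 members with a lower term and ended the calls of Ifit1 (-0.85, adjusted p = 0.0757), Ifit2 (-0.999, adjusted p = 0.0972), Phf11d (-1.08, adjusted p = 0.0505), Ifi44 (-1.33, adjusted p = 0.0636), Tor3a (-0.63, adjusted p = 0.172) and Bst2 (-0.62, adjusted p = 0.14) by limma, at the same log2 values. Without ACs replicate 2 or 3, E. coli + ACs replicate 1 or IFN-γ + ACs replicate 2, 8 members had a lower term, and without IFN-γ + ACs replicate 3 or replicate 2 or 3 of the combined group 2 had a higher one, the second being Ifit1bl1, Mx1 and Uba7 in turn. The macrophage markers moved with this term, since it was lower for 4 and higher for none of the 12. It was also lower for 3 and higher for 1 of the 6 tested neutrophil markers and higher for 2 of the 7 tested eosinophil markers, and the part of these in the antiviral genes was not tested. A lower term was not particular to the antiviral genes. Among the lists of targets it was found for 4 of 9 tested IFN-γ, 3 of 6 tested IL-4 and 1 of 10 endotoxin targets, and 0 were higher. Of the 11 members with an ISRE core in the promoter window 7 had a lower term, and of the 22 without a core 4 had one, where 4.28% of all genes tested had one. With IFN-γ 5 of the 11 and 8 of the 22 rose, with medians of 0.29 and 0.40 on the log2 scale, and with both stimuli 3 of the 11 and 10 of the 22 rose, where 11.4% and 14.7% of all genes rose.

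**Figure D4:**
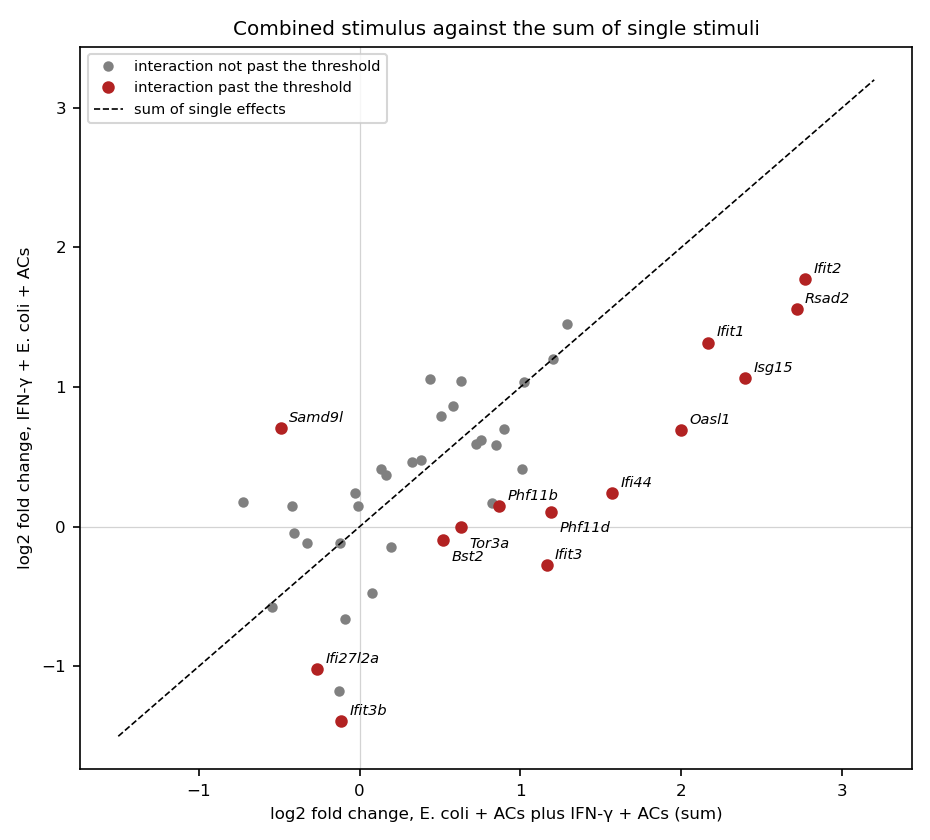
Log2 fold change under the combined stimulus (vertical axis) against the sum of the log2 fold changes under E. coli alone and IFN-γ alone (horizontal axis), each relative to ACs, with a point for each of the 43 members, red where the interaction passed the threshold and a dashed line at equality. The 13 members with a negative interaction lie under the line, such as Rsad2 at a sum of 2.72, and Samd9l lies above it.

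Compared directly with IFN-γ + ACs, the combined stimulus left 3 members (6.98%) higher and 8 (18.6%) lower. Of all genes 5.96% were higher and 8.61% lower, so that the count of higher members stood near that share. The 8 lower members were Ifi27l2a (-0.92 ± 0.15, adjusted p = 0.000339), Ifit3 (-0.91 ± 0.12, adjusted p = 3.27e-05), Ifit3b (-0.91 ± 0.20, adjusted p = 0.00283), Ifi44 (-0.78 ± 0.24, adjusted p = 0.0287), Ifit2 (-0.71 ± 0.16, adjusted p = 0.00425), Lgals3bp (-0.71 ± 0.13, adjusted p = 0.000862), Phf11d (-0.67 ± 0.15, adjusted p = 0.00364) and Phf11b (-0.60 ± 0.14, adjusted p = 0.00391). For all 8 the libraries with bacteria lay below those with IFN-γ alone. The 3 higher members were Rnf213 (0.63 ± 0.12, adjusted p = 0.000791), Uba7 (0.61 ± 0.15, adjusted p = 0.00559) and Samd9l. None of these 3 stayed past the threshold in every fit that left out a library, and of the 8 lower members Ifi27l2a, Ifit3 and Ifit3b did. Without IFN-γ + ACs replicate 2, 4 members were lower, and without replicate 3 of the combined group 1 was higher. In the same comparison 10 of the 12 macrophage markers were lower and none higher, 2 of the 7 tested eosinophil markers were higher and 1 lower, and 2 of the 6 tested neutrophil markers were higher and 1 lower. Their part was not tested.

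The 2 single stimuli were also compared directly. With IFN-γ + ACs 6 members (14.0%) were higher than with E. coli + ACs and 1 (2.33%) was lower. Of all genes 9.84% were higher and 6.72% lower, so that the count of higher members stood near that share. After rescaling to a common upper quartile 3 of the 6 stayed higher. The 6 were Ifit2, Herc6 (1.08 ± 0.14, adjusted p = 1.09e-05), Samd9l (0.72 ± 0.17, adjusted p = 0.00399), Oasl2 (0.63 ± 0.10, adjusted p = 0.000174), Phf11b (0.62 ± 0.14, adjusted p = 0.0024) and Zbp1 (0.61 ± 0.10, adjusted p = 0.000156), and the 1 lower member was Ifit3b (-0.86 ± 0.20, adjusted p = 0.00368), joined by Oas1g when IFN-γ + ACs replicate 1 was left out. Of the 6 higher members Ifit2, Herc6 and Samd9l kept the call when any single library was left out. Oasl2 went under 1.5-fold without IFN-γ + ACs replicate 1 (0.58), and Phf11b and Zbp1 did so without E. coli + ACs replicate 2 (0.53 and 0.55) and without IFN-γ + ACs replicate 2 (0.51 and 0.58). Isg15 had a difference of 0.38 ± 0.15 (adjusted p = 0.0926) and Ifit3 of 0.10 ± 0.12 (adjusted p = 0.606), neither past the threshold. Macrophage markers moved in this comparison as well, 9 of 12 being higher with IFN-γ, while 4 of the 7 tested eosinophil markers were lower, and of the 6 neutrophil markers 1 was higher and 2 lower. Their part was not tested.

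None of the 43 members passed the threshold with IL-4 + ACs, where 0.74% of all 10669 genes tested rose and 0.347% fell. At an unadjusted p under 0.05 limma gave 0 members higher and 2 lower, and edgeR and DESeq2 on the recovered reads each called 0 higher and 1 lower, Ifit3. Ifit3 had normalized counts of 856, 852 and 1394 with ACs and 406, 392 and 642 with IL-4 + ACs, and the libraries did not overlap. Its log2 fold change of -1.10 ± 0.24 had an adjusted p of 0.0808 by limma, and an adjusted p of 6.17e-05 when both shallow replicate 3 libraries were left out (-1.10). Its relative Ifit3b had 111, 116 and 214 with ACs and 74.2, 68.5 and 123 with IL-4, overlapping in the shallow library, with a log2 fold change of -0.70 ± 0.32 (adjusted p = 0.517). Without both shallow libraries it was -0.66 with an adjusted p of 0.039 by limma.

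Ifit2 did not pass the threshold with IL-4. Its normalized counts were 157, 138 and 300.2 with ACs and 109.5, 98 and 164 with IL-4, a log2 fold change of -0.62 ± 0.31 (adjusted p = 0.558). Rsad2, at 1482, 1024 and 2675 with ACs and 1753, 1515 and 1814 with IL-4, had a value of 0.08 ± 0.28, and Isg15 of 0.15 ± 0.27. In ACs replicate 3 of this experiment, the shallowest library, the members summed to 38822, against 27617 and 30517 in the other ACs libraries, while with IL-4 they summed to between 28606 and 32885. Macrophage markers were lower for 1 of 12 and higher for none with IL-4, eosinophil markers were higher for 2 of 10, and neutrophil markers were lower for 1 of 5 tested. Their part was not tested.

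The ACs libraries of both experiments differed in the level of these genes. In the Type 1 experiment 28 of the 43 members had ACs libraries wholly above those of the IL-4 experiment and 2, Ifi27 and Sp100, wholly below, where 19.6% and 22.6% of all genes had ranges apart in those directions. Rsad2 stood at 3429, 2914 and 3242 in the ACs libraries of the Type 1 experiment against 1482, 1024 and 2675 in those of the IL-4 experiment, and Ifi27 at 33.3, 45 and 34.2 against 217, 237 and 172. The experiments were separate, so that this difference cannot be told apart from one between their batches.

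Of 47 genes that produce, carry or restrain the interferon signal, 34 were abundant enough to be tested. None of the 10 interferon ligands was. Ifnb1 had no reads in any of the 18 libraries. By counting error alone this allows an expected count of up to about 3 reads over the 18 libraries together. Across all 10 ligands single reads of Ifna2 and of Ifng were found in 1 library each. With E. coli + ACs 0 of the 34 rose and 2 fell, with IFN-γ + ACs 12 rose and 3 fell, with both 13 rose and 2 fell, and with IL-4 + ACs none passed the threshold. Of all genes tested 5.05% rose and 5.25% fell with E. coli, and 11.4% rose and 9.96% fell with IFN-γ. With both stimuli 14.7% rose and 17.2% fell, and with IL-4 0.74% rose and 0.347% fell. The falls with E. coli and with IFN-γ thus stood near the share over all genes. At an unadjusted p under 0.05 limma gave 10 higher with E. coli, and 3 higher and 2 lower with IL-4. Neither edgeR nor DESeq2 on the recovered reads called any higher with E. coli, and with IL-4 edgeR called none while DESeq2 called Ifngr1 alone, which was higher. For the interaction term 2 were higher and 1 lower, where 3.16% of all genes tested were higher and 4.28% lower.

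Among the receptors and kinases, Ifnar2 of the type I receptor rose with IFN-γ (0.97 ± 0.18, adjusted p = 0.000367) and with both (1.21 ± 0.18, adjusted p = 2.2e-05), while Ifnar1 did not pass the threshold with either. Ifngr1, the ligand-binding chain for IFN-γ, fell with IFN-γ alone (-0.60 ± 0.16, adjusted p = 0.00821), and the kinase Jak2 fell with E. coli (-0.76 ± 0.13, adjusted p = 0.000354). Of 9 transcription factors 6 rose with IFN-γ and 6 with both, and none passed the threshold with E. coli. Irf1 rose 5.63-fold with IFN-γ (2.49 ± 0.12, adjusted p = 6.77e-12) and 7.07-fold with both (2.82 ± 0.12, adjusted p = 9.33e-13), and Batf2 rose by 3.01 ± 0.37 and 2.48 ± 0.37 on the log2 scale. Irf8, a factor of myeloid cells, rose by 2.56 ± 0.25 and 1.03 ± 0.25, and was lower with both stimuli than with IFN-γ (-1.53 ± 0.25, adjusted p = 0.000218). Stat2, a partner in the complex at the ISRE, rose by 0.75 ± 0.13 and 1.18 ± 0.13.

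Irf7 and Irf9, the amplifiers of the type I response, did not pass the threshold under any stimulus, with values of 0.29 ± 0.12 (adjusted p = 0.0875) and -0.20 ± 0.11 (adjusted p = 0.196) for IFN-γ. Of 6 tested negative regulators 3 rose with IFN-γ and 4 with both. The feedback inhibitor Socs1 rose by 1.48 ± 0.22 with IFN-γ and 1.45 ± 0.22 with both, the phosphatase Ptpn2 by 0.92 ± 0.16 and 1.45 ± 0.16, and Samhd1, which depletes deoxynucleotides, by 1.00 ± 0.10 and 1.61 ± 0.10. Of 11 tested sensing genes 2 rose and 2 fell with both stimuli. Tmem173, which encodes the adaptor STING, fell with E. coli (-0.99 ± 0.20, adjusted p = 0.00178), IFN-γ (-0.82 ± 0.20, adjusted p = 0.00418) and both (-0.91 ± 0.20, adjusted p = 0.00119), and Tlr7, a sensor of single-stranded RNA, fell with both (-1.28 ± 0.27, adjusted p = 0.00108).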

How the data were processed

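The authors deposited 1 table of normalized counts, a signal equal to the reads on each gene divided by the DESeq2 size factor of the library. The processing notes name cutadapt 1.10, TopHat2 2.1.0, HTSeq 0.6.1, DESeq2 1.26.0 and GRCm38, whereas the methods describe 2 pipelines. Whether strand was used in counting is not given in the sources used here, and exons of Oasl1, Usp18, Rnf213, Dhx58, Adar and others overlap a gene on the other strand. Whole reads were recovered for 100.0% of values, within 0.005 of a whole number. Depth ranged from 779421 to 7782072 reads per library (median 4461121), and counting limits cover counting error only. Of the gene identifiers 54409 matched a symbol, 53229 with the same version.

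Values were fitted as log2(normalized count + 1) with limma 3.58.1 in R 4.3.3 (lmFit, eBayes with a trend) for genes with a mean of at least 10. The 12 Type 1 libraries formed 1 fit (10166 genes) and the 6 IL-4 libraries another (10669 genes). On simulated data with 200 genes changed 4-fold and the same spread for every gene, 92.5% were recovered for IFN-γ. For the interaction 79% and for IL-4 84% were recovered, with 9, 12 and 1 false calls in the 3 comparisons. Most changes of the members were smaller than 4-fold, so these shares do not measure recovery of such changes. The methods give 3 biological replicates, and a legend of the paper assigns each lane to a different mouse for eosinophils with and without ACs. Whether each stimulated library was from a different mouse is not stated. The p-values thus measure the spread between these samples, which may be technical in part.

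Same-numbered libraries did not deviate together (correlations from -0.0892 to 0.085 in the Type 1 experiment and from 0.0005 to 0.0208 in the IL-4 experiment), so the numbers were not used as pairs.

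The members and lists were chosen with earlier results of these data known. Values in every library are given, by a set rule, for the 2 most abundant members of each class and for the 3 largest rises and falls among called members in each comparison, and the promoters shown follow a rule on the IFN-γ change. Alternatives were no fold threshold, a pseudocount of 5, a filter at a mean of 50 or none beyond a value above 0, the replicate number as a block, rescaling to the same upper quartile, array weights, 1 fit of all 18 libraries, the recovered reads in DESeq2 1.42.0 or in edgeR 4.0.16, and each library or both shallow libraries left out.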

Additional observations from a re-analysis of the deposited data

Results flagged for a closer look

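The effect of E. coli differed between eosinophils with and without IFN-γ for 14 members, as tested with the interaction term of limma and adjusted over all genes. The log2 difference was -1.44 for Ifit3, -1.33 for Isg15, -1.33 for Ifi44, -1.30 for Oasl1 and -1.28 for Ifit3b. It was -1.16 for Rsad2, -1.08 for Phf11d, -0.999 for Ifit2, -0.85 for Ifit1 and -0.76 for Ifi27l2a. It was -0.72 for Phf11b, -0.63 for Tor3a and -0.62 for Bst2, whereas Samd9l gave 1.19. For Ifit3 the effect of E. coli was 0.53 without IFN-γ and -0.91 with it, and for Samd9l -0.61 and 0.59. With 3 libraries per group, no group was large enough for a test of single outlying libraries.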

How the results depend on the processing

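Depth limits the IL-4 comparison most, since 3 reads stand for normalized counts of 15.42 and 16.08 in its replicate 3 libraries. Rescaling to a common upper quartile moved the median of all genes with both stimuli from -0.05 to -0.18 and the share of higher calls among all genes from 46.1% to 34.4%. With it 11 members were higher with both stimuli, 0 were higher with both than with IFN-γ, and 3 were higher with IFN-γ than with E. coli. Without the fold threshold 9 members were higher and 2 lower with E. coli, 8 were higher with both than with IFN-γ, and 14 were higher and 2 lower with IFN-γ than with E. coli. Array weights gave 1 member lower with IFN-γ (Ifit1bl1), 2 with a higher interaction (Samd9l and Uba7) and 3 lower with IL-4 (Ifit3, Ifit3b and Ifit1bl1). edgeR and DESeq2 each gave 3 members with a higher interaction (Samd9l, Uba7 and Mx1). Fitting all 18 libraries together gave 7 members with a lower interaction. Ifit3 was the 1 member lower with IL-4 by edgeR, by DESeq2, with all genes above 0, with all 18 libraries and with the replicate block, and without both shallow libraries there were 2, Ifit3 and Ifit3b. Over all genes tested, 116 were called with IL-4, against 745 with array weights, 212 by edgeR, 209 by DESeq2, 208 with all genes above 0, 221 with all 18 libraries and 74 with the replicate block.

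The replicate block moved members higher with both against IFN-γ to 4 and members with a lower interaction to 11, and left the other counts of members in the Type 1 experiment as they were. Leaving out 1 library at a time gave 4 to 7 members higher and 0 to 1 lower with E. coli, 12 to 14 and 0 to 1 with IFN-γ, and 13 to 16 and 2 to 5 with both. It gave 1 to 3 higher and 4 to 9 lower for both against IFN-γ, 4 to 7 and 1 to 2 for IFN-γ against E. coli, 1 to 2 and 8 to 13 for the interaction, and 0 to 0 and 0 to 1 for IL-4. The 1 member lower without IL-4 + ACs replicate 3 was Ifit3. Eif2ak2 with IL-4 was 0.34 and ranged from -0.0143 (without ACs replicate 2 of that experiment, which turned it) to 0.59 with 1 library left out. Over the named members and comparisons, 1382 values kept their direction and side of the threshold, 132 lost the call and 23 gained it. Of the 15 members higher with IFN-γ 11 were called in every alternative, of the 17 higher with both 10, of the 5 higher with E. coli 4 and of the 13 with a lower interaction 5, namely Ifit3, Ifit3b, Isg15, Oasl1 and Rsad2. Where a call was lost the cause was not tested.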
